A study of Mus musculus with 7 samples.

Results

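Selenocysteine tRNA, written SeC-UCA after its anticodon (SeC-TCA in the DNA letters of the tables), was followed across 3 kinds of mouse glial cells in 7 QuantM-seq libraries. It was taken as the SeC-UCA row of the anticodon table and every isodecoder, a tRNA body with that anticodon, named for it in the isodecoder table. This gave 1 of 52 anticodon pools and 1 of 217 isodecoders, SeC-UCA-1, which made up the whole pool in every library. All cells were of strain 129S/SvEv and comprised oligodendrocyte progenitor cells (OPCs, n = 3), astrocytes (n = 2) and oligodendrocytes (OLs, n = 2). The OPCs were derived from epiblast stem cells and kept in medium with PDGFA (20 ng/mL) and bFGF. The OLs were differentiated from OPCs with the thyroid hormone T3 (40 ng/mL), together with noggin, IGF-1, cyclic AMP and NT3. The astrocytes were differentiated from OPCs with BMP4 (10 ng/mL), together with bFGF, Hb-EGF and CNTF. The study's methods state that the OLs were differentiated from 2 of the OPC replicates, without naming them, and some cells in the OL dishes were still undifferentiated OPCs. The tables hold tRNAs only, so the labelled cell types were not checked here against marker mRNAs. In such bulk samples fewer cells of a type and less RNA per cell cannot be told apart.

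Selenocysteine tRNA reads UGA, which is otherwise a stop codon, in the mRNAs of selenoproteins such as glutathione peroxidases, thioredoxin reductases and deiodinases. It is first charged with serine by seryl-tRNA synthetase, and the serine is then converted to selenocysteine on the tRNA by the kinase PSTK and the synthase SEPSECS. The elongation factor EEFSEC delivers it to ribosomes at UGA codons whose mRNA carries a SECIS element. It is longer than other tRNAs, is transcribed by RNA polymerase III from a promoter that lies mainly upstream of the gene, and bears a wobble uridine with an mcm5-type side chain. Deiodinases, which are selenoproteins, activate and inactivate thyroid hormone, the agent added to the OL cultures.

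SeC-UCA had its highest level in OLs and its lowest in OPCs, with astrocytes between them. Levels are RPM, the reads of a tRNA among 1000000 reads assigned to any cytosolic or mitochondrial tRNA. In OPC replicates 1 to 3 the level was 2279, 2207 and 2098 RPM. OL replicates 1 and 2 had 3287 and 3426 RPM, and astrocyte replicates 1 and 2 had 2546 and 2777 RPM. No library of one cell type overlapped those of another. The group levels were 2195 RPM ± 90.9 (SD, n = 3) for OPCs, 2662 RPM ± 163 (SD, n = 2) for astrocytes and 3356 RPM ± 98.6 (SD, n = 2) for OLs. These values rested on 3051 to 7297 reads of SeC-UCA per library, of 1339021 to 2627351 reads assigned to tRNAs. The 95% Wilson intervals were narrow, from 2041 to 2156 RPM in the lowest library and from 3337 to 3518 RPM in the highest. These intervals and the read limits hold for counting error alone, because molecules were not tagged before PCR. The spread between replicates was used as the error in all tests.

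**Figure D1:**
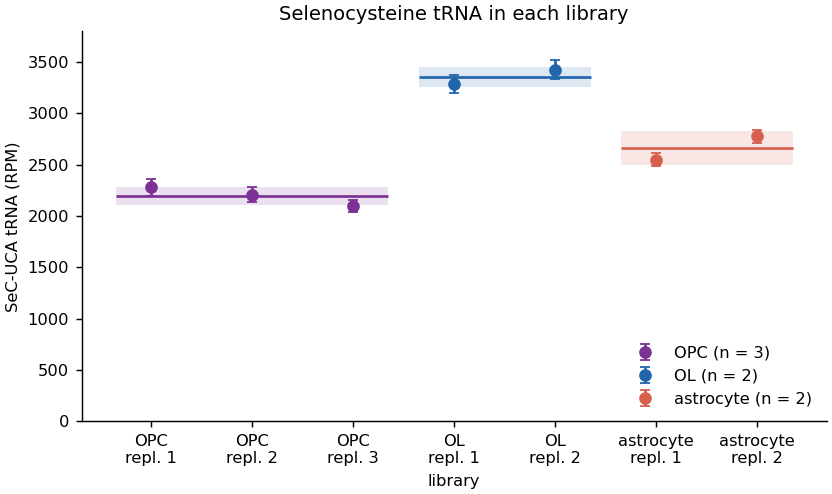
SeC-UCA level in RPM (vertical axis, from 0) in each of the 7 libraries (horizontal axis). Points carry 95% Wilson intervals, lines are group means and shaded bands are ± 1 SD. The 3 OPC libraries lie at 2098 to 2279 RPM, the astrocyte libraries at 2546 and 2777 RPM and the OL libraries at 3287 and 3426 RPM.

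The spread of SeC-UCA between replicates was at or below the median of a set of anticodon pools that includes SeC-UCA. The coefficient of variation between OPC libraries was 4.14%, where the median was 7.42% over the 47 anticodon pools that averaged 100 RPM or more, and 11 of these pools varied less. In astrocytes it was 6.14% against a median of 7.58%, and 19 pools varied less. In OLs it was 2.94%, and 23 pools varied less, so SeC-UCA was itself the median pool there.

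The comparison of OLs with OPCs asked whether SeC-UCA changes as progenitors become oligodendrocytes. The level in OLs was 1.53-fold that in OPCs (95% interval 1.30 to 1.80), a log2 change of 0.61 (SE 0.087). In the limma fit over all 52 anticodon pools, SeC-UCA had an adjusted p of 0.0402. This missed a threshold of 0.01, which 0 pools passed in limma (0%), and it was under 0.05, as for 4 pools (7.69%). The study applied 0.01 to adjusted p-values of another test, the count model DESeq2, and there reported SeC-UCA as higher in OLs. Without a threshold for multiple tests, 13 pools (25%) had an unadjusted limma p under 0.05. In the limma fit over 192 isodecoders, SeC-UCA-1 rose, with the same change and an adjusted p of 0.0062 (SE 0.095), and 11 isodecoders (5.73%) passed 0.01. Of these 11, 2 were higher in OLs (1.04%). The level is identical in both fits, and the p-values differ through the tRNAs that share the fit. Each OL library exceeded each OPC library, which also held for 17 of the 52 pools (32.7%) and for 58 of the 192 isodecoders (30.2%). SeC-UCA is a tRNA that the study itself picked out in these libraries, so the comparison is no independent evidence of its direction, its size or its rank among pools. The isodecoder call was lost without OPC replicate 1 (limma adjusted p 0.0236), OPC replicate 2 (0.0181), OL replicate 1 (0.0754) or OL replicate 2 (0.104), and also without a filter on low values (0.0139) or without a variance trend (0.0218).

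The size of the change stood at the top of the anticodon pools. By absolute log2 change SeC-UCA was number 2 of 52, behind Sup-UUA, a predicted suppressor tRNA listed at a mean of 0.249 RPM in OPCs and 2.18 RPM in OLs, where 1 read was worth 0.411 to 0.747 RPM and 0.623 to 0.629 RPM, respectively. Among the 47 pools of 100 RPM or more it was number 1. The median absolute log2 change over the 51 pools above 0 was 0.17. The median signed change was 0.13, so the change of SeC-UCA relative to the typical pool was 0.48. Scaling by the median of ratios, which removes most of that shift, gave a log2 change of 0.52. As a share of the reads on listed cytosolic tRNAs, SeC-UCA took 0.349% ± 0.0111 (SD, n = 2) in OLs, where OPCs had 0.234% ± 0.0121 (SD, n = 3) and astrocytes 0.289% ± 0.018 (SD, n = 2).

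Among isodecoders the change was less exceptional. SeC-UCA-1 was number 33 of 192 by absolute log2 change and number 21 of the 122 that averaged 100 RPM or more. The median absolute change of isodecoders was 0.29, larger than that of whole pools. By unadjusted limma p, SeC-UCA-1 was number 8 of 192.

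**Figure D2:**
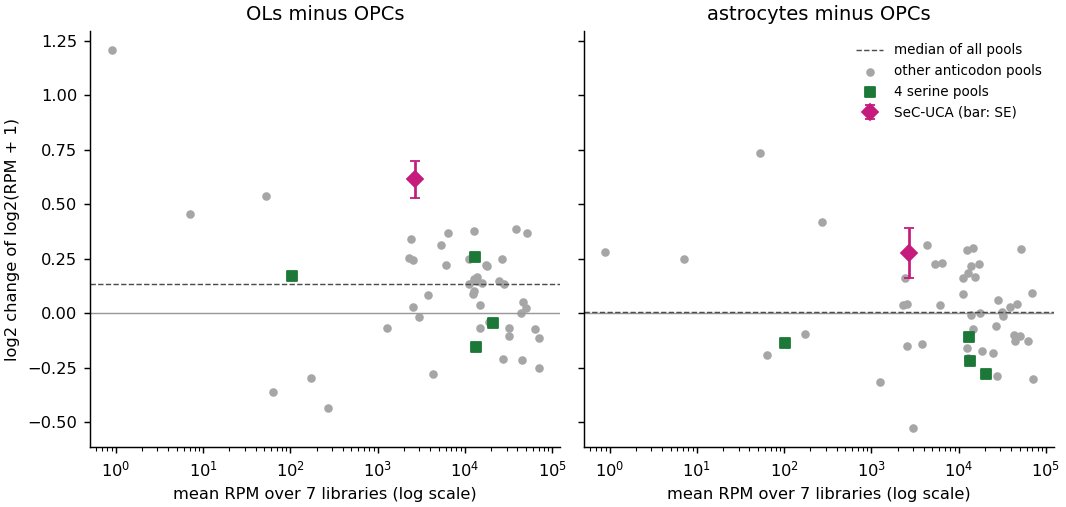
Change of each anticodon pool above 0 on the log2(RPM + 1) scale (vertical axis) against its mean RPM over 7 libraries (horizontal axis, log scale), for OLs minus OPCs (left) and astrocytes minus OPCs (right). SeC-UCA (diamond, bar SE) lies at 0.61 on the left, above every other pool of at least 100 RPM, and at 0.28 on the right, within the range of the other pools; squares are the 4 serine pools and the dashed line is the median pool.

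Astrocytes were compared with OPCs as the other fate of the same progenitors. The astrocyte level of SeC-UCA was 1.21-fold that of OPCs (95% interval 0.984 to 1.49), a log2 change of 0.28 (SE 0.11). Each astrocyte library exceeded each OPC library, as was the case for 7 of 52 pools (13.5%) and 32 of 192 isodecoders (16.7%). The difference did not pass 0.01 in limma, with an adjusted p of 0.351 over pools and 0.243 over isodecoders. In both limma fits 0% passed, and 6 pools (11.5%) had an unadjusted p under 0.05. Relative to the median pool the change was 0.27. By size it was number 13 of 52, so 12 pools differed more, among them Cys-GCA at 0.42 and Ile-AAU at 0.29.

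The fates were set against each other in a model of the 7 libraries, where the difference between OLs and astrocytes is also that between their changes from OPCs. The level in OLs was 1.26-fold that in astrocytes, a log2 difference of 0.34 (95% interval 0.09 to 0.58, SE 0.098). It did not pass 0.01 in limma, with an adjusted p of 0.216 over anticodon pools (0% passed, 15.4% had an unadjusted p under 0.05) and 0.101 over isodecoders (6.25% passed, 1.04% as higher in OLs). Each OL library exceeded each astrocyte library, as in 25 of 52 pools (48.1%) and 78 of 192 isodecoders (40.6%). Relative to the median pool the difference was 0.23. These comparisons share libraries, and the OPC libraries enter 2 of them as controls. In the order OPC, astrocyte, OL, the neighbouring levels therefore did not overlap but did not differ beyond 0.01 in limma, and the outer pair passed in the isodecoder fit only. Libraries that did not overlap in this order were found in 4 of the 50 pools that averaged 1 RPM or more (8.0%), SeC-UCA, Gly-UCC, Ile-AAU and Pro-UGG. The order was taken from SeC-UCA itself, and pools separated in another order were not counted. Pro-UGG lies outside the naming rule and was named after its values were seen. Among 192 isodecoders 8 had the order of SeC-UCA (4.17%), SeC-UCA-1 included.

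Serine tRNAs are the other substrates of seryl-tRNA synthetase, and a list of 4 of the 5 serine pools served as a yardstick within each library. Their summed level was similar in OPCs and OLs, at 49050 RPM ± 2301 (SD, n = 3) and 49328 RPM ± 2768 (SD, n = 2), and was 42205 RPM ± 2760 (SD, n = 2) in astrocytes. Both astrocyte libraries, at 44157 and 40254 RPM, lay below all OPC and OL libraries, which ranged from 47054 to 51567 RPM. The main members were Ser-UGA, Ser-CGA and Ser-GCU. Ser-UGA stood at 18142 RPM ± 790.0 (SD, n = 2) in astrocytes, below OPCs at 21994 RPM ± 519.6 (SD, n = 3) and OLs at 21299 RPM ± 266 (SD, n = 2). Its log2 differences were -0.05 in OLs and -0.28 in astrocytes against OPCs (limma adjusted p 0.325 and 0.224). The differences were -0.15 and -0.22 for Ser-CGA, 0.26 and -0.11 for Ser-GCU, and 0.17 and -0.13 for the minor pool Ser-AGA, in the same order. None of the 4 passed 0.01 in limma in any of the 3 comparisons, in each of which 0% of all 52 pools passed. The median change of the 4 was 0.06 in OLs and -0.18 in astrocytes, beside 0.13 and 0.01 over all pools. The fifth pool, Ser-GGA, with 70.5 RPM ± 9.76 (SD, n = 3) in OPCs, was not on the list and had differences of -0.36 and -0.19 (limma adjusted p 0.237 and 0.612). With it, a choice made after its values were seen, the median was -0.05 in OLs, where 3 of the 5 were negative, and -0.19 in astrocytes, where all 5 were.

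Relative to serine tRNAs, SeC-UCA lay above the OPC values in both differentiated cell types. For every 100 serine tRNA reads there were 4.70, 4.69 and 4.07 SeC-UCA reads in OPC replicates 1 to 3. OL replicates 1 and 2 had 6.94 and 6.68, and astrocyte replicates 1 and 2 had 5.77 and 6.90. OLs and astrocytes thus overlapped on this scale, while all 4 of their libraries lay above all OPC libraries. The serine sum that forms the denominator was lower in astrocytes (42205 RPM) than in OPCs (49050 RPM). Part of the astrocyte difference in the ratio therefore lies in the serine reads, as the log2 change of SeC-UCA itself was 0.28. The log2 ratio differed by 0.61 between OLs and OPCs and by 0.50 between astrocytes and OPCs. For each, the two-sided exact permutation p was 0.1, the smallest that 10 splits allow, and 0.15 after Benjamini-Hochberg adjustment over the 3 comparisons. Between OLs and astrocytes the log2 ratio differed by 0.11, with an exact permutation p of 0.667 where 0.33 is the smallest possible. None of these designs could reach 0.05. With astrocyte replicate 1 left out this difference became -0.019.

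**Figure D3:**
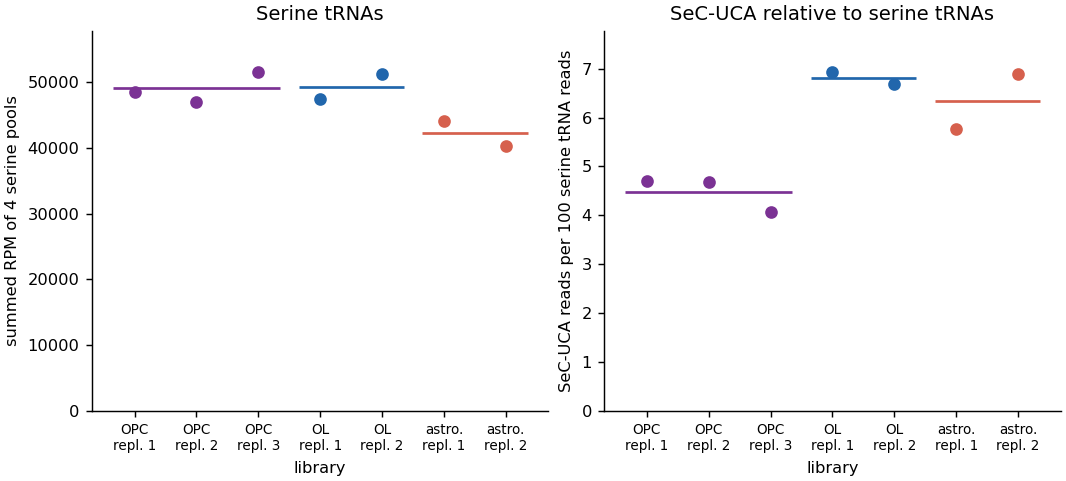
Left, summed RPM of the 4 serine anticodon pools in each library; right, SeC-UCA reads per 100 serine tRNA reads (both vertical axes from 0, lines are group means). On the right the OPC libraries lie at 4.07 to 4.70, the astrocyte libraries at 5.77 and 6.90 and those of OLs at 6.68 and 6.94.

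The tRNAs that read the other sense codons of the UGN box were Cys-GCA, for UGU and UGC, and Trp-CCA, for UGG. Cysteine is the amino acid that stands in place of selenocysteine in homologues of many selenoproteins. Cys-GCA was lowest in OLs, at 194 RPM ± 20.4 (SD, n = 2), and highest in astrocytes, at 355 RPM ± 78.9 (SD, n = 2), with OPCs at 264 RPM ± 38.7 (SD, n = 3). Its log2 differences against OPCs were -0.43 in OLs and 0.42 in astrocytes (limma adjusted p 0.226 and 0.446). The OL libraries, at 180 and 209 RPM, lay below the OPC libraries, of which the lowest had 232 RPM. This downward separation was also found in Leu-UAA, Lys-UUU, Ser-UGA, Phe-GAA, Met-CAU, Pro-AGG and Glu-UUC, and in no other of the 52 pools. In the opposite direction, OLs lay wholly above OPCs in 17 of 52 pools (32.7%). The log2 differences of Trp-CCA against OPCs were 0.17 in OLs and 0.22 in astrocytes (limma adjusted p 0.308 and 0.446) and its libraries overlapped between OPCs and OLs. In none of the 3 comparisons did either member pass 0.01 in limma, where 0% of all 52 pools passed. Cys-GCA and SeC-UCA therefore had opposite signs in OLs and the same sign in astrocytes, without a test of the difference between them.

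A further list held 5 pools known for an mcm5-type wobble uridine, the modification that SeC-UCA also carries: Arg-UCU, Gln-UUG, Glu-UUC, Gly-UCC and Lys-UUU. In OLs against OPCs 0 of the 5 passed 0.01 in limma, where 0% of all 52 pools passed. Of the 5, 2 had a positive and 3 a negative difference, and the median was -0.07, beside 0.13 over all pools. Gly-UCC, which like SeC-UCA is a pool of 1 isodecoder, had the highest value of the 5, 0.13 (limma adjusted p 0.107). Its levels were 27315 RPM ± 629.6 (SD, n = 3) in OPCs, 28452 RPM ± 180.3 (SD, n = 2) in astrocytes and 29932 RPM ± 578 (SD, n = 2) in OLs. In astrocytes against OPCs 0 of the 5 passed and the median was -0.01, and in OLs against astrocytes 0 passed and the median was 0.07. In both comparisons 0% of all 52 pools passed.

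By reads, SeC-UCA was one of the smaller pools. Ordered by group means it was number 42 of 52 in OPCs and number 38 in both OLs and astrocytes. This is an order of reads and not of levels per length. In OPCs its neighbours were Pro-CGG at 2197 RPM ± 287 (SD, n = 3) and Leu-AAG at 2160 RPM ± 301 (SD, n = 3), from which it did not differ beyond their spread. In OLs it stood between Val-AAC at 3464 RPM ± 288 (SD, n = 2) and Thr-CGU at 3260 RPM ± 108 (SD, n = 2), whose libraries overlapped those of SeC-UCA. In astrocytes Thr-UGU lay next below at 2456 RPM ± 66.1 (SD, n = 2) and Ala-CGC next above at 3483 RPM ± 298 (SD, n = 2). Neither of these overlapped SeC-UCA in the astrocyte libraries.

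The tRNAs whose pattern was most like that of SeC-UCA were found by the root mean square distance between log2(RPM + 1) values over the 7 libraries, each tRNA centred on its own mean. Of 49 other pools that averaged 1 RPM or more, Ile-AAU was nearest at 0.12, followed by Asp-GUC at 0.13, Leu-CAA at 0.16, and Pro-CGG and Asn-GUU at 0.17 each. The median distance was 0.26. Ile-AAU, an isoleucine pool, had 10933 RPM ± 909 (SD, n = 3) in OPCs, 13321 RPM ± 214 (SD, n = 2) in astrocytes and 14180 RPM ± 75.5 (SD, n = 2) in OLs. Its log2 difference in OLs against OPCs was 0.38 (limma adjusted p 0.0609). Asp-GUC differed by 0.37 in OLs (limma adjusted p 0.0464), and its astrocyte libraries were far apart, with a mean of 55870 RPM ± 9126 (SD, n = 2). In the OL libraries all 5 lay below SeC-UCA on the centred scale. In OPC replicate 1 SeC-UCA was the lowest of the 6, at -0.20, in replicate 2 Ile-AAU and Pro-CGG were lower, and in replicate 3 SeC-UCA and Asn-GUU were the lowest, at -0.32 each. The distances describe these libraries only, and all values share the total to which reads were scaled.

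**Figure D4:**
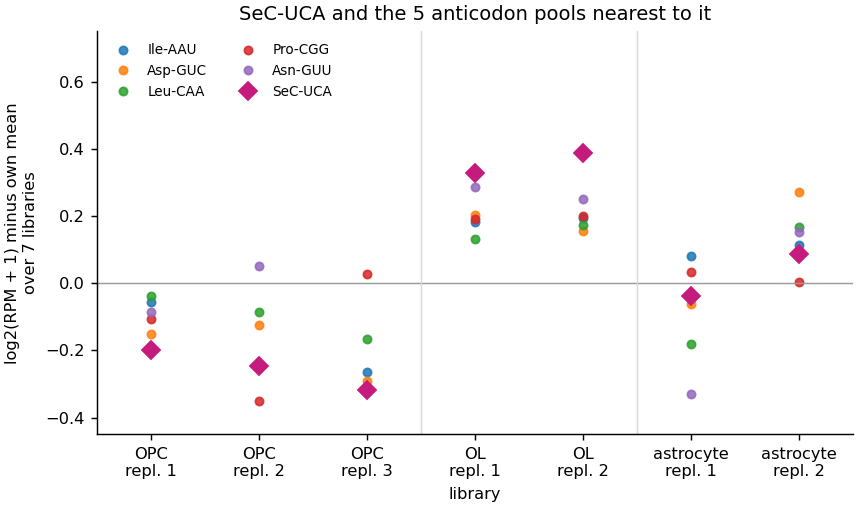
Centred level, log2(RPM + 1) minus the mean of each tRNA over the 7 libraries (vertical axis), of SeC-UCA (diamonds) and the 5 nearest anticodon pools (circles) in each library (horizontal axis). In both OL libraries SeC-UCA is the highest of the 6, at 0.33 and 0.39.

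Among 191 other isodecoders the nearest was iMet-CAU-2, a minor form of the initiator methionine tRNA, at a distance of 0.06, where the median was 0.36. It had 19.0 RPM ± 0.437 (SD, n = 3) in OPCs, 24.2 RPM ± 2.89 (SD, n = 2) in astrocytes and 28.2 RPM ± 0.702 (SD, n = 2) in OLs. With 1 read worth 0.381 to 0.747 RPM, such levels rest on few reads. The distance takes no account of counting error, so the closeness of this match is uncertain. The log2 difference of iMet-CAU-2 in OLs against OPCs was 0.55 (limma adjusted p 0.150). Next came Arg-CCU-4 at 0.10, iMet-CAU-3 at 0.11, and Ile-AAU-1 and Asp-GUC-2 at 0.12 each. The difference in OLs against OPCs was 0.47 for Arg-CCU-4 (limma adjusted p 0.0123) and 0.70 for iMet-CAU-3 (limma adjusted p 0.0509). The level of iMet-CAU-3 was also low, at 50.5 RPM ± 2.47 (SD, n = 3) in OPCs. None of the 5 passed 0.01 in this comparison, where 5.73% of isodecoders did.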

How the data were processed

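QuantM-seq libraries of OPCs (3), OLs (2) and astrocytes (2) were grouped by the labels; the study's methods call them biological replicates. The authors trimmed reads with cutadapt, mapped them with bowtie2 to a collapsed mature tRNA set of mm10 and counted isodecoders with featureCounts. The deposited RPM values are per 1000000 reads assigned to cytosolic and mitochondrial tRNAs. The deposited tables of DESeq2 results (mean count, fold change, p-value) were not used.

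Every RPM value was a whole multiple of 1 read within 0.1 read, which gave the reads per library and a limit of 3 reads (1.14 to 2.24 RPM) for a value of 0. The step was read from 43 to 55 low values per library. The recovered reads were used for depth, intervals and limits, and no count model was fitted between cell types. Listed cytosolic tRNAs took 92.1% to 96.4% of reads. RPM were compared as log2(RPM + 1), which understates changes of low tRNAs, with limma 3.58.1 in R 4.3.3 (variance trend, two-sided), without a term for the replicate number. Benjamini-Hochberg adjustment ran over 52 pools or over the 192 isodecoders that averaged 1 RPM or more, with a threshold of 0.01. OLs and astrocytes were compared in a fit of all 7 libraries, the other comparisons in fits of their own libraries. The scripts were tested on simulated data. Ratios to serine tRNAs (Ser-AGA, Ser-CGA, Ser-GCU, Ser-UGA) were compared by exact permutation tests.

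Besides SeC-UCA, the text names the members of 3 lists, the 5 nearest tRNAs per table, the neighbours by mean RPM and pools with larger changes where 5 or fewer. SeC-UCA and the lists were chosen with earlier results of these data known. RPM counts reads of mature tRNA that passed adapter ligation and reverse transcription, so a level is relative to the other tRNAs of its library. Whether modification of SeC-UCA altered its recovery was not tested. Sequence and coordinates of the tRNA were not used here.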

Additional observations from a re-analysis of the deposited data

How the results depend on the processing

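The direction of SeC-UCA held in all 3 limma comparisons under every alternative. Against OPCs, its log2 change in OLs ranged from 0.52 to 0.64 over 15 alternatives (limma adjusted p 0.0133 to 0.360), and the same 0.61 passed at a threshold of 0.05. In astrocytes it ranged from 0.22 to 0.34 (limma adjusted p 0.208 to 0.620), and in OLs against astrocytes from 0.23 to 0.40 over 18 (limma adjusted p 0.117 to 0.612). For SeC-UCA-1 in OLs against OPCs, the change of 0.61 no longer passed 0.01 without a filter on low values (limma adjusted p 0.0139, with 217 isodecoders tested) or without a variance trend (0.0218). Leaving out 1 library gave 0.58 to 0.64, and the call at 0.01 was kept only when that library was OPC replicate 3. The ratio to serine tRNAs kept its direction against OPCs under every alternative run, including the sum of all 5 serine pools, added after seeing the data (0.61 in OLs and 0.50 in astrocytes), and that between OLs and astrocytes ranged from -0.019 to 0.24 when 1 library was left out. At a threshold of 0.05, 4 anticodon pools passed in OLs against OPCs instead of 0.

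The number of isodecoders past 0.01, which sets the background of the comparisons, moved more. In OLs against OPCs it was 11, and 1 without a filter, 19 at a minimum mean of 100 RPM, 17 rescaled to the listed tRNAs, 22 under median-of-ratios scaling, 2 without a variance trend and 35 at a threshold of 0.05. Leaving out 1 library gave 0 to 29. In astrocytes against OPCs it was 0, and 1 at a minimum mean of 100 RPM, 17 under median-of-ratios scaling, 14 at 0.05, 10 in a fit of all 7 libraries and 0 to 17 with 1 library left out. In OLs against astrocytes it was 12, and 0 without a filter, 0 without a variance trend and 0 to 20 with 1 library left out. The causes were not tested. Where 1 library was left in a group, it was assumed to vary like the others.

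Replicate numbers are shared, but which OPC culture gave which OL culture is not stated, so the numbers were not taken as pairs. Differences of replicate 1 minus 2 across 50 pools correlated with r = -0.235 between OPCs and OLs, 0.415 between OPCs and astrocytes and -0.518 between OLs and astrocytes. The signs differ, and such correlations cannot decide whether equal numbers are pairs. With a replicate block, OPC replicate 3 stands alone, and the log2 difference of SeC-UCA in OLs against OPCs was 0.58, as without that library. There 45 isodecoders passed, and 24 in astrocytes against OPCs, on variance borrowed mainly from other isodecoders. In OLs against astrocytes 10 passed, or 18 (0 pools) with astrocyte numbers crossed, chosen after seeing the data.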

Other observations

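Sup-UCA, a predicted suppressor tRNA, has the same anticodon as SeC-UCA and was named after its values were seen. It was covered by 6 to 21 reads per library, above the limit of 3 reads that a count of 0 allows. Its level was 5.81 RPM ± 1.26 (SD, n = 3) in OPCs, 7.12 RPM ± 1.99 (SD, n = 2) in astrocytes and 9.06 RPM ± 5.69 (SD, n = 2) in OLs, and the libraries of the 3 cell types overlapped. The log2 difference in OLs against OPCs was 0.45 (SE 0.42, limma adjusted p 0.422).

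SeC-UCA is 1 of 9 pools above 0 that consist of 1 isodecoder, so that no redistribution among bodies can occur within them. The others that averaged 100 RPM or more were Gly-UCC, Pro-AGG, Pro-CGG and Val-UAC, with log2 differences in OLs against OPCs of 0.13, -0.29, 0.34 and 0.22 beside 0.61 for SeC-UCA. In astrocytes against OPCs these pools differed by 0.06, -0.10, 0.16 and 0.23 beside 0.28 for SeC-UCA. No pool passed 0.01 in limma in either comparison. Pro-AGG and Val-UAC were named after their values were seen.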
